A study of Rattus norvegicus with 26 samples.

Results

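The 10 genes that encode enzymes of mitochondrial fatty acid oxidation were followed in the thoracic aorta of spontaneously hypertensive rats: Cpt1b, Cpt2, Acadvl, Acadl, Acadm, Hadha, Hadhb, Acaa2, Eci1 and Etfdh. They were chosen by name, as the array probes whose accession leads to one of these symbols, and make up 10 of the 15168 genes named on the array, with 12 of its 23744 tested probes. Total RNA was hybridised to 1-colour Agilent arrays, 1 array per sample. The rats were male SHR, a strain that develops high blood pressure without intervention, and all 4 groups were hypertensive rats, so no normotensive strain serves as a reference. They were dosed by mouth for 4 weeks with saline at 7.5 mL per kg (8 arrays), Songling Xuemaikang capsule (SXC), a Chinese herbal medicine, at 236.25 mg per kg (low dose, 6 arrays) or 708.75 mg per kg (high dose, 6 arrays), or with valsartan, which blocks the angiotensin II receptor and lowers blood pressure, at 21.6 mg per kg (6 arrays). Valsartan was dosed later in the day than SXC, which was given 2 times daily, and tissue was taken at 28 days. The age of the rats is not given in the labels used here, and the design text counts 8 rats in the valsartan group, of which 6 arrays were analysed here. The comparison of saline with each treatment asks how the aorta's transcripts differed after SXC or after valsartan, which the study calls its positive group.

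Mitochondria burn fatty acids by beta-oxidation, a cycle in which each round shortens the acyl chain by an acetyl unit. Long chains enter the mitochondrion as carnitine esters, acyl-CoA dehydrogenases start each round, the trifunctional protein and a thiolase finish it, and electrons leave through the electron transfer flavoprotein to the respiratory chain. The pathway is most active in heart, red skeletal muscle, liver and brown fat. The rodent thoracic aorta consists largely of smooth muscle and is surrounded by perivascular fat with brown features.

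Levels below are log2 processed signal minus the array's 75th percentile, so 0 is the level of a spot brighter than 75% of the spots on that array. Each gene is represented by its brightest tested probe, and levels of different genes are not set against each other because probes differ in binding. A call means an adjusted p under 0.05 in limma, a linear model fitted across all 23744 tested probes and 26 arrays. Fewer cells of a type and less RNA per cell cannot be told apart in whole tissue. The saline arrays were all scanned on 1 day, 82 days after the last treated array, and no scan day or slide held both saline and treated arrays, so this difference and treatment cannot be told apart. High-dose arrays 3 to 6 and all valsartan arrays were scanned at the lower of 2 detector gains. The share of probes well above background was 67.3% to 76.2% in saline, 70.4% to 77.0% with low-dose SXC, 28.9% to 79.6% with high-dose SXC and 32.5% to 56.5% with valsartan. Of all probes called against saline, 56.8% were higher with low-dose SXC, 62.5% with high-dose SXC and 56.8% with valsartan, shares that became 54.0%, 41.7% and 38.1% after quantile normalisation and 64.2%, 76.7% and 78.2% after normexp background correction.

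The saline arrays came in near-identical pairs, which bears on every comparison with saline. Arrays 1 and 5, 2 and 6, and 3 and 7 lay on different slides, yet their median absolute difference over 7278 probes well above background on every array was 0.063 to 0.10, below that of any pair of treated arrays of a group (0.12 or more, median 0.27). The SD of the same differences was 0.43 to 0.48, above the smallest among pairs of treated arrays (0.25), and at most 0.20 once each probe's mean difference over the 3 pairs was removed. The median absolute difference of the pairs exceeded the 0.031 to 0.048 between spots of a probe on the same array. Spots of an array share a slide and paired arrays do not, so this cannot tell whether the pairs are the same library. Array 4 lay within a median absolute difference of 0.033 of the average signal of arrays 1 and 2, and array 8 within 0.083 of that of arrays 6 and 7. For the 10 genes, paired arrays differed by a median of 0.057 and at most 0.16. The 8 saline arrays may therefore hold fewer than 8 independent samples, and comparisons are also given with saline as 3 pair averages. The labels say that RNA was extracted from each aorta separately.

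All 10 genes were high on saline arrays 3, 7 and 8, each of which exceeded every other saline array. The same held for 16.5% of all tested probes. From arrays 1 and 5 to arrays 3 and 7 the average level went from -0.62 to 4.00 for Acaa2, from 0.29 to 5.62 for Cpt1b, from 0.64 to 4.59 for Hadhb and from 1.13 to 4.49 for Eci1. The gap between these pairs ran from 2.47 for Acadl, a 5.54-fold difference in signal, to 5.33 for Cpt1b, a 40.2-fold difference, and it exceeded 2 for all 10 genes against 3.86% of tested probes. Arrays 2 and 6 lay between the other pairs for every one of the 10, an order shown by 19.7% of all probes measured on all arrays. Saline had the largest SD of the 4 groups for all 10 genes.

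Adipocyte markers were high on the same saline arrays. The summed signal of the 10 genes, with the 75th percentile spot set to 1, was 39.0 to 73.2 on saline arrays 1, 2, 4, 5 and 6 and 204.3 to 336 on arrays 3, 7 and 8. In such sums the brightest probes weigh most. Among the 10 genes this is Acadl, at 4.78 to 7.34 on the saline arrays, so their sum largely follows Acadl. Brown adipocyte markers summed to 10.6 to 38.4 and to 192 to 311 on these arrays, and white and shared adipocyte markers to 12.8 to 55.8 and to 130 to 215. The uncoupling protein gene Ucp1, which defines brown fat, stood between 6.14 and 6.91 on arrays 3, 7 and 8 and between 0.25 and 3.58 on the other saline arrays, and of the marker lists 6 of 7 brown and 8 of 9 white and shared adipocyte genes had arrays 3, 7 and 8 above all others. Among endothelial genes 3 of 6 showed this. Their summed signal was 5.28 to 13.9 on saline arrays 1, 2, 4, 5 and 6 and 21.3 to 30.0 on arrays 3, 7 and 8. By contrast, the pattern held for 1 of 10 heart and skeletal muscle, 0 of 8 smooth muscle and 0 of 6 fibroblast genes. It held for 1 of 8 macrophage and 0 of 7 red cell genes. The smooth muscle genes Acta2 (3.10 to 6.72) and Myh11 (4.54 to 5.44) were well above background on all saline arrays, as were the heart and skeletal muscle genes Myl2 (-6.15 to -4.84) and Mb (-1.80 to -0.95), while the heart gene Myh6 was on 6 of 8. The part of adipocyte RNA in the levels of the 10 genes was not tested.

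**Figure D1:**
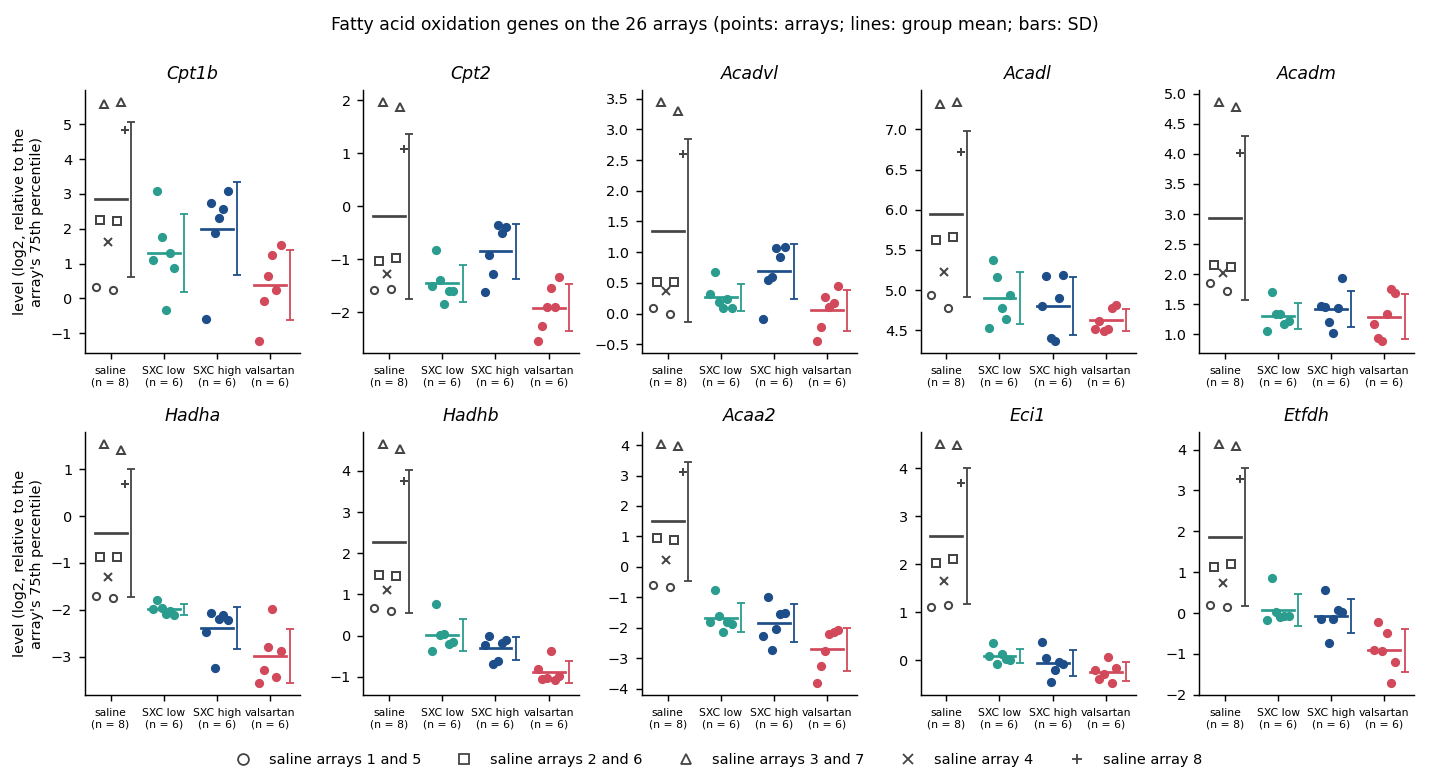
Level of each of the 10 genes (log2, relative to the array's 75th percentile) on every array of the 4 groups, where points are arrays, lines group means and bars the SD. Saline arrays 3, 7 and 8 stand above the other saline arrays in all 10 panels, while the 6 arrays of each treated group lie closer together, as for Eci1 between -0.48 and 0.38 over all treated arrays.

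**Figure D2:**
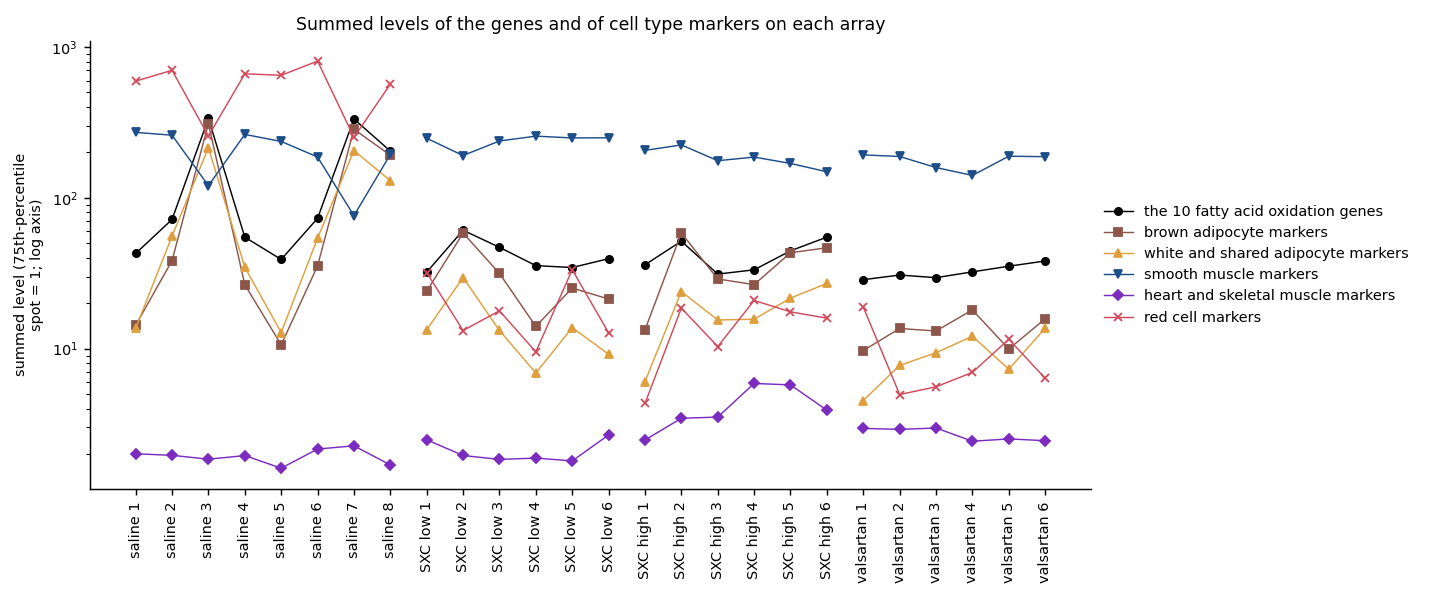
Summed signal (75th percentile spot = 1, log axis) of the 10 genes and of marker lists on each of the 26 arrays. The brightest probes weigh most in each sum, and in that of the 10 genes this is the Acadl probe. The 10 genes and both adipocyte lists peak together on saline arrays 3, 7 and 8, the smooth muscle sum does not rise there, and the red cell sum is 252 to 808 in saline against at most 33.4 on any treated array.

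Against saline, all 10 genes had lower mean levels in all 3 treated groups. With low-dose SXC 8 of the 10 were called lower, where 17.1% of all tested probes were. With high-dose SXC 7 of 10 were called lower (all tested probes, 21.4%) and with valsartan 10 of 10 (25.2%). None was called higher. The median difference over the 10 genes was -1.63, -1.72 and -2.54 in that order, beside medians of 0.09, 0.25 and 0.19 over all tested probes. Every array of the treated group lay below every saline array for 4 genes with low-dose SXC (Acaa2, Hadha, Eci1 and Acadm, where 15.2% of tested probes did), for 4 with high-dose SXC (Acaa2, Hadha, Hadhb and Eci1, 9.63%) and for 5 with valsartan (Acaa2, Hadha, Hadhb, Eci1 and Etfdh, 12.6%). These comparisons share the saline arrays, so they are not independent of each other. With detector gain as a block, 4 of the 10 were called lower with high-dose SXC (Acaa2, Hadha, Hadhb and Eci1, against 9.16% of tested probes). Acadm (-1.48, adjusted p = 0.0721), Acadl (-0.97, adjusted p = 0.132) and Etfdh (-1.66, adjusted p = 0.107) were not. All saline arrays had the higher gain, so this difference rests on the 2 high-dose arrays of that gain. Without the block these 3 differences were -1.52, -1.15 and -1.93. Their SE rose from 0.41, 0.32 and 0.51 to 0.61, 0.47 and 0.76 with it. With slide as a random block 6, 7 and 8 of the 10 were called lower with low-dose SXC, high-dose SXC and valsartan, where 11.8%, 17.0% and 19.3% of tested probes were, the calls of Cpt2 and Acadl with low-dose SXC and of Cpt1b and Acadvl with valsartan being lost.

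At the carnitine shuttle, Cpt1b encodes the muscle and brown fat form of carnitine palmitoyltransferase 1, the step at which entry into the mitochondrion is controlled. Its level ranged from 0.24 to 5.64 in saline (median 2.23), from -0.32 to 3.08 with low-dose SXC (median 1.20), from -0.60 to 3.08 with high-dose SXC (median 2.44) and from -1.24 to 1.54 with valsartan (median 0.44). The groups overlapped widely, and only valsartan was called: the difference from saline was -1.54 ± 0.79 (SE, adjusted p = 0.122) with low-dose SXC, -0.84 ± 0.79 (SE, adjusted p = 0.368) with high-dose SXC and -2.44 ± 0.79 (SE, adjusted p = 0.00985) with valsartan. Cpt2 encodes the inner membrane enzyme that returns the acyl group to coenzyme A. Its level ranged from -1.59 to 1.96 in saline (median -1.01), from -1.84 to -0.83 with low-dose SXC (median -1.55), from -1.62 to -0.36 with high-dose SXC (median -0.72) and from -2.55 to -1.34 with valsartan (median -1.90). Arrays of all 3 treated groups overlapped the saline range, and 4 of 6 high-dose arrays stood above each of saline arrays 1, 2, 4, 5 and 6. The differences for Cpt2 were -1.27 ± 0.48 (SE, adjusted p = 0.0360) with low-dose SXC, -0.66 ± 0.48 (SE, adjusted p = 0.243) with high-dose SXC and -1.73 ± 0.48 (SE, adjusted p = 0.00324) with valsartan. The low-dose call was lost (adjusted p = 0.0526 to 0.0826) when saline array 3, 7 or 8 or low-dose array 1, 3, 4, 5 or 6 was left out in turn, and with 3 saline pair averages it had an adjusted p of 0.0778.

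The acyl-CoA dehydrogenases, which take very long, long and medium chains, were all lower on average in the treated groups. Acadvl ranged from -0.0043 to 3.44 in saline (median 0.52), from 0.088 to 0.68 with low-dose SXC (median 0.21), from -0.081 to 1.09 with high-dose SXC (median 0.76) and from -0.45 to 0.44 with valsartan (median 0.14). Low-dose arrays all lay inside the saline range and the other treated arrays overlapped it, and the differences were -1.08 ± 0.44 (SE, adjusted p = 0.0546) with low-dose SXC, -0.66 ± 0.44 (SE, adjusted p = 0.206) with high-dose SXC and -1.30 ± 0.44 (SE, adjusted p = 0.0146) with valsartan. The low-dose comparison passed the threshold (adjusted p = 0.0228 to 0.0399) without saline array 1, 2, 4, 5 or 6. Acadl ranged from 4.78 to 7.34 in saline (median 5.64), from 4.53 to 5.37 with low-dose SXC (median 4.85), from 4.36 to 5.18 with high-dose SXC (median 4.85) and from 4.50 to 4.81 with valsartan (median 4.57). Its treated arrays sat at the lower end of the saline range or below it, and all 3 differences were called: -1.05 ± 0.32 (SE, adjusted p = 0.0102) with low-dose SXC, -1.15 ± 0.32 (SE, adjusted p = 0.00339) with high-dose SXC and -1.33 ± 0.32 (SE, adjusted p = 9.52e-04) with valsartan. Acadm, whose enzyme is the one deficient in the commonest inherited disorder of the pathway, ranged from 1.71 to 4.86 in saline (median 2.13), from 1.06 to 1.70 with low-dose SXC (median 1.28), from 1.02 to 1.93 with high-dose SXC (median 1.45) and from 0.88 to 1.76 with valsartan (median 1.26). Low-dose arrays all lay below every saline array, whereas high-dose and valsartan arrays overlapped it. For Acadm the differences were -1.63 ± 0.41 (SE, adjusted p = 0.00225) with low-dose SXC, -1.52 ± 0.41 (SE, adjusted p = 0.00258) with high-dose SXC and -1.64 ± 0.41 (SE, adjusted p = 0.00129) with valsartan.

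The mitochondrial trifunctional protein, which carries out the later steps on long chains, is built from the products of Hadha and Hadhb. These genes lie head to head, with 243 bases between their RefSeq gene models in the GRCr8 assembly at chr6:31907558-31907800, Hadhb on the minus strand and Hadha on the plus strand. The stretch is shown because these neighbours were lower together, beside the upstream sequences of Eci1 (chr10:13961000-13961249, plus strand) and Acadvl (chr10:55236706-55236955, minus strand), the 250 bases before each start, which hold the nuclear receptor half-site. Capitals mark AGGTCA, the half-site bound by PPAR and related receptors, and GGGCGG, the GC box, on either strand.
Hadhb-Hadha: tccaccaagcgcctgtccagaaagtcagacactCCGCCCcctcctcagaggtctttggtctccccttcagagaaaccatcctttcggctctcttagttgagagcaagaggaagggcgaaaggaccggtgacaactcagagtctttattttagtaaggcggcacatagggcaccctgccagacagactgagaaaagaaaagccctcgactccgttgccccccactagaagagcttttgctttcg
Eci1: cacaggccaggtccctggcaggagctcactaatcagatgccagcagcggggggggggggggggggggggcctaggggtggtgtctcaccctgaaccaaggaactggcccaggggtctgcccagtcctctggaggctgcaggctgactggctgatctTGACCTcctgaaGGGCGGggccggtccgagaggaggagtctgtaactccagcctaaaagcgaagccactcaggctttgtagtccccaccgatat
Acadvl: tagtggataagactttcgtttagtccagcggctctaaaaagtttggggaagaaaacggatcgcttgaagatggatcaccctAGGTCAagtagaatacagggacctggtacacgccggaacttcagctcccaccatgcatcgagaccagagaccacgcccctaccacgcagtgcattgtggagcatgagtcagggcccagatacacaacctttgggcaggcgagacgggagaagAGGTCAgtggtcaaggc
RefSeq start-site sequences were on hand for 7 of the 10 genes. In the 250 bases before the start, on either strand, AGGTCA occurred for Eci1 and Acadvl, 2 of 7, and in 13.7% of 27457 rat promoters. The extended form AAGGTCA, which contains AGGTCA, occurred in 0 of 7 and 3.77% of promoters, and CCAAT in 0 of 7 and 34.3%. GGGCGG occurred for Hadha, Hadhb, Eci1, Cpt2 and Etfdh, 5 of 7, and in 32.4% of promoters. The GC box of Hadha, 205 bases before its start, is the site marked between the 2 genes. Hadhb has matches 91 and 26 bases before its start, and the stretch shown does not hold both. The matches of these neighbours may therefore not be separate. These are matches of letters only.

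Both trifunctional genes, read by their brightest probes, were called lower in every treated group. A second Hadha probe was called with valsartan alone, and its SXC differences, -0.64 with the low dose (adjusted p = 0.167) and -0.31 with the high dose (0.483), were smaller. Hadha, the alpha subunit, ranged from -1.74 to 1.53 in saline (median -0.87), from -2.10 to -1.78 with low-dose SXC (median -2.0), from -3.24 to -2.07 with high-dose SXC (median -2.20) and from -3.55 to -1.99 with valsartan (median -3.08). No treated array reached the lowest saline array, and 5 of 6 high-dose and 3 of 6 valsartan arrays had a signal well above background. Differences from saline were -1.63 ± 0.43 (SE, adjusted p = 0.00339) with low-dose SXC, -2.02 ± 0.43 (SE, adjusted p = 2.60e-04) with high-dose SXC and -2.63 ± 0.43 (SE, adjusted p = 1.11e-05) with valsartan. Hadhb, the beta subunit, ranged from 0.61 to 4.65 in saline (median 1.46), from -0.36 to 0.76 with low-dose SXC (median -0.070), from -0.69 to -0.016 with high-dose SXC (median -0.21) and from -1.08 to -0.38 with valsartan (median -1.0). High-dose and valsartan arrays lay below all saline arrays and 1 low-dose array, array 2, overlapped them. The differences for Hadhb were -2.27 ± 0.51 (SE, adjusted p = 8.25e-04) with low-dose SXC, -2.59 ± 0.51 (SE, adjusted p = 1.13e-04) with high-dose SXC and -3.17 ± 0.51 (SE, adjusted p = 9.01e-06) with valsartan, or 4.81-fold, 6.02-fold and 9.01-fold lower.

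Acaa2, the thiolase that releases acetyl-CoA at the end of a round, had the largest differences of the 10 genes in all 3 comparisons. It ranged from -0.66 to 4.03 in saline (median 0.91), from -2.13 to -0.75 with low-dose SXC (median -1.81), from -2.73 to -0.98 with high-dose SXC (median -1.80) and from -3.82 to -2.07 with valsartan (median -2.48). No treated array overlapped saline, although its signal rose well above background on only 5 of 6 high-dose and 4 of 6 valsartan arrays. The group means were 1.49 ± 1.95 (SD, n = 8) in saline, -1.66 ± 0.48 (n = 6) with low-dose SXC, -1.85 ± 0.62 (n = 6) with high-dose SXC and -2.71 ± 0.71 (n = 6) with valsartan. The differences were -3.16 ± 0.60 (SE, adjusted p = 1.58e-04) with low-dose SXC, -3.34 ± 0.60 (SE, adjusted p = 4.45e-05) with high-dose SXC and -4.20 ± 0.60 (SE, adjusted p = 2.09e-06) with valsartan, or 8.91-fold, 10.1-fold and 18.4-fold lower. These sizes depend on the processing. The largest valsartan difference among the 10 genes was -3.265 after normexp background correction and -4.768 after quantile normalisation. With the authors' deposited log2 values it was -5.048.

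Eci1, the isomerase that moves the double bond of unsaturated fatty acids so that they can enter the cycle, also separated completely. Its level ranged from 1.12 to 4.50 in saline (median 2.06), from -0.080 to 0.35 with low-dose SXC (median 0.055), from -0.46 to 0.38 with high-dose SXC (median -0.059) and from -0.48 to 0.074 with valsartan (median -0.25). The lowest saline array stood above the highest of the treated arrays. Eci1 differed from saline by -2.50 ± 0.41 (SE, adjusted p = 2.64e-05) with low-dose SXC, -2.65 ± 0.41 (SE, adjusted p = 6.40e-06) with high-dose SXC and -2.83 ± 0.41 (SE, adjusted p = 2.44e-06) with valsartan. Etfdh encodes the oxidoreductase that passes electrons from the flavoprotein to ubiquinone. It ranged from 0.16 to 4.14 in saline (median 1.17), from -0.17 to 0.86 with low-dose SXC (median -0.080), from -0.74 to 0.55 with high-dose SXC (median -0.054) and from -1.72 to -0.22 with valsartan (median -0.91). Valsartan arrays were all below saline, while low-dose and high-dose arrays overlapped it. All differences of Etfdh were called: -1.79 ± 0.51 (SE, adjusted p = 0.00659) with low-dose SXC, -1.93 ± 0.51 (SE, adjusted p = 0.00236) with high-dose SXC and -2.77 ± 0.51 (SE, adjusted p = 5.48e-05) with valsartan.

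How far these differences rested on saline arrays 3, 7 and 8 was measured by leaving them out, a choice made after their high levels of these genes had been seen, so it lowers the saline mean by construction. The remaining arrays are pairs 1 and 5 and 2 and 6 and array 4, so their spread may be too small. Without arrays 3, 7 and 8, 5 of the 10 genes were called lower with low-dose SXC (15.4% of all tested probes), 7 with high-dose SXC (20.7%) and 8 with valsartan (24.5%). Acaa2, Hadha, Hadhb, Eci1 and Acadm were called lower in all 3 comparisons with these arrays, without them, and with saline as 3 pair averages. When array 4 was left out too, the low-dose difference of Hadha was not called (-0.69, adjusted p = 0.0686). The second Hadha probe differed by 0.13, 0.46 and -0.30 without arrays 3, 7 and 8 for low-dose SXC, high-dose SXC and valsartan, none of them called. Eci1 differed by -1.52 ± 0.17 (SE, adjusted p = 5.05e-07), -1.67 ± 0.17 (SE, adjusted p = 1.08e-07) and -1.85 ± 0.17 (SE, adjusted p = 1.94e-08) for low-dose SXC, high-dose SXC and valsartan without arrays 3, 7 and 8. Acaa2 differed by -1.82 ± 0.37 (SE, adjusted p = 4.49e-04), -2.01 ± 0.37 (SE, adjusted p = 9.86e-05) and -2.87 ± 0.37 (SE, adjusted p = 1.32e-06). For Hadhb the same differences were -1.04 ± 0.20 (SE, adjusted p = 2.95e-04), -1.37 ± 0.20 (SE, adjusted p = 8.32e-06) and -1.95 ± 0.20 (SE, adjusted p = 8.20e-08).

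Differences of the remaining genes are given in the same order, low-dose SXC, high-dose SXC and valsartan. Without arrays 3, 7 and 8, Hadha differed by -0.69 ± 0.26 (SE, adjusted p = 0.0399), -1.08 ± 0.26 (SE, adjusted p = 0.00117) and -1.69 ± 0.26 (SE, adjusted p = 1.01e-05) and Acadm by -0.66 ± 0.17 (SE, adjusted p = 0.00366), -0.55 ± 0.17 (SE, adjusted p = 0.00909) and -0.67 ± 0.17 (SE, adjusted p = 0.00195). Etfdh differed by -0.61 ± 0.26 (SE, adjusted p = 0.0770), -0.75 ± 0.26 (SE, adjusted p = 0.0204) and -1.60 ± 0.26 (SE, adjusted p = 2.77e-05) and Acadl by -0.34 ± 0.18 (SE, adjusted p = 0.159), -0.44 ± 0.18 (SE, adjusted p = 0.0460) and -0.62 ± 0.18 (SE, adjusted p = 0.00670), so that the low-dose call of both was lost. The low-dose call of Cpt2 was lost too, and the entry step genes and Acadvl then had no call with either SXC dose, with Cpt2 at -0.17 and 0.44, Acadvl at -0.027 and 0.39 and Cpt1b at -0.034 and 0.67. The high-dose difference of these 3 genes changed sign, from negative to positive. With valsartan the difference was -0.63 ± 0.24 (SE, adjusted p = 0.0340) for Cpt2, -0.24 ± 0.19 (SE, adjusted p = 0.291) for Acadvl and -0.93 ± 0.63 (SE, adjusted p = 0.212) for Cpt1b, of which only Cpt2 was called. With saline as 3 pair averages, 7, 7 and 10 genes were called lower with low-dose SXC, high-dose SXC and valsartan, where 9.72%, 14.8% and 18.5% of all tested probes were, and Acaa2 differed by -3.09 ± 0.64 (SE, adjusted p = 0.00127), -3.28 ± 0.64 (SE, adjusted p = 4.23e-04) and -4.14 ± 0.64 (SE, adjusted p = 4.23e-05).

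**Figure D3:**
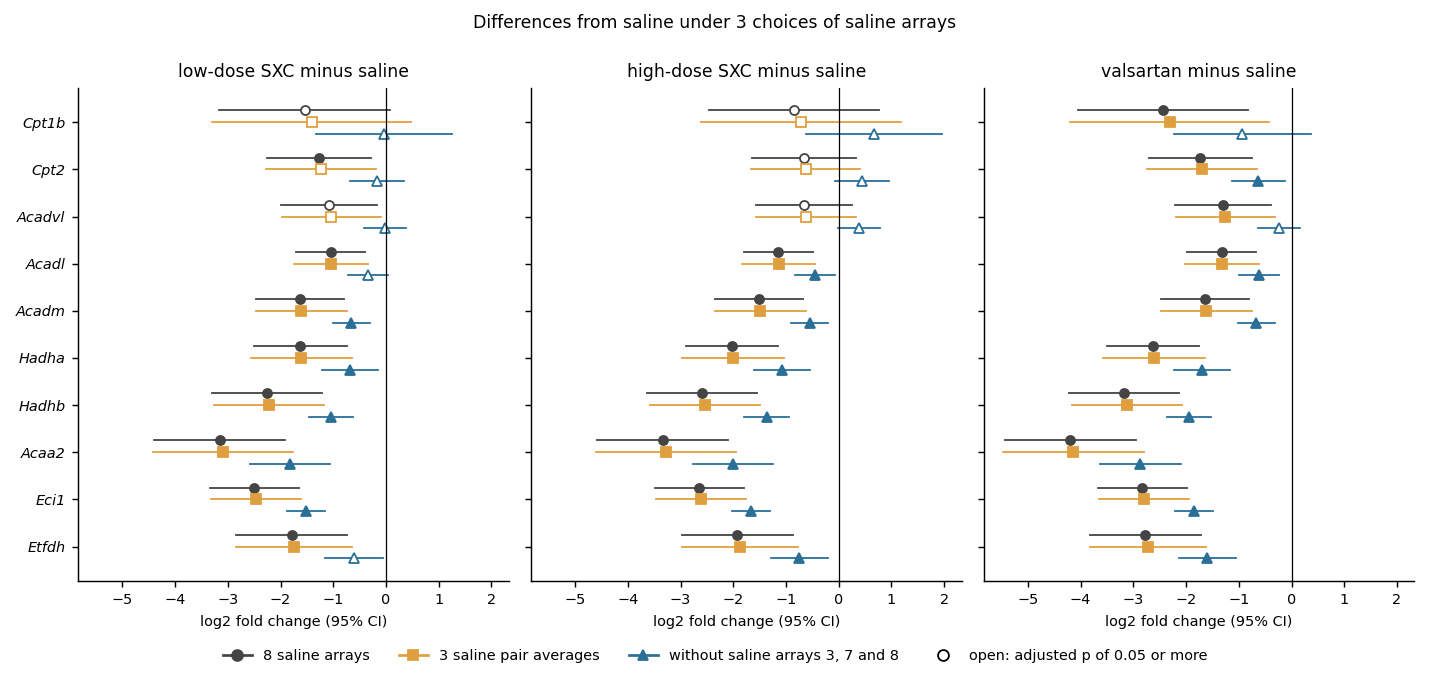
Log2 fold change with its 95% confidence interval for each gene, low-dose SXC, high-dose SXC and valsartan against saline, with all 8 saline arrays, 3 pair averages, or without arrays 3, 7 and 8 (open symbols, adjusted p of 0.05 or more). Acaa2, Hadha, Hadhb, Eci1 and Acadm keep filled symbols under all 3 choices, and the high-dose differences of Cpt1b, Cpt2 and Acadvl lie above 0 without arrays 3, 7 and 8.

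Markers of several cell types also differed between saline and the treated groups, and their part in these results was not tested. Of the white and shared adipocyte markers 7 of 9 were called lower in each treated group, and Adipoq, the adipocyte hormone adiponectin, differed by -1.88, -1.42 and -2.60 with low-dose SXC, high-dose SXC and valsartan (adjusted p = 0.0131, 0.0436 and 6.00e-04). Brown adipocyte markers were called lower for 2, 0 and 5 of 7, with Ucp1 at -2.40, -1.57 and -2.98 (adjusted p = 0.0274, 0.119 and 0.00447). Their summed signal on treated arrays (14.0 to 58.4, 13.3 to 58.5 and 9.71 to 18.1) overlapped the 10.6 to 38.4 of saline arrays 1, 2, 4, 5 and 6, and so did the white and shared sum, at 6.89 to 29.6, 6.05 to 27.1 and 4.53 to 13.7 against 12.8 to 55.8. With valsartan only array 6 reached that white and shared range, and the other valsartan arrays lay below it, at 4.53 to 12.1. Red cell markers were called lower for 7 of 7 in each treated group, with sums of 252 to 808 in saline and 9.52 to 33.4, 4.33 to 20.9 and 4.96 to 18.9 in the treated groups. Macrophage markers were lower for 7 of 8 in each group, endothelial markers for 4 of 6 in each with 1 called higher, and fibroblast markers for 3, 4 and 4 of 6. Of all 23744 tested probes, 5345, 8465 and 7888 were called higher and 4063, 5084 and 5988 lower with low-dose SXC, high-dose SXC and valsartan. Smooth muscle markers moved both ways, with 2 called higher in each group and 2, 3 and 3 of 8 called lower. Heart and skeletal muscle markers did so too, with 2, 5 and 3 of 10 called higher and 2, 4 and 3 lower. Among them Myl2, a myosin light chain of heart and slow muscle, had the largest rise of the list in each treated group. It ranged from -6.15 to -4.84 in saline, from -5.55 to -2.09 with low-dose SXC and from -2.47 to 1.74 with high-dose SXC. With valsartan it ranged from -0.46 to 0.45. It was higher by 5.40 with high-dose SXC and 5.46 with valsartan (adjusted p = 2.26e-08 and 1.64e-08), and 1.36 higher with low-dose SXC, which was not called (adjusted p = 0.0603).

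Between the treated groups none of the 10 genes was called by limma, whereas 22.2% of all tested probes were called in either direction between the SXC doses, 25.2% between valsartan and low-dose SXC and 1.37% between valsartan and high-dose SXC. At an unadjusted p under 0.05 there were 0, 1 and 1 of the 10, against 35.3%, 37.6% and 17.2% of tested probes. High-dose minus low-dose SXC ran from -0.39 for Hadha (95% interval -1.33 to 0.54) to 0.70 for Cpt1b (-1.03 to 2.43), with a median of -0.12. Valsartan had the lowest group mean for all 10 genes, with medians of -0.68 against low-dose and -0.62 against high-dose SXC, although after quantile normalisation Acadm and Acadl lay above low-dose SXC by 0.04 and 0.03, and with the mean of its probes Cpt1b did by 0.35. Hadha had the lowest unadjusted p against low-dose SXC, at -1.0 ± 0.46 (SE, adjusted p = 0.109) with an interval of -1.94 to -0.062. Cpt2 had the lowest against high-dose SXC, at -1.07 ± 0.51 (SE, adjusted p = 0.282) with an interval of -2.12 to -0.020. Most intervals were wide, and a p above the threshold does not show equal levels. With slide or scan day as a fixed block between the SXC doses, which shared 1 slide and 1 scan day, or scan day between valsartan and high-dose SXC, limma called 0 of the 10, also at an unadjusted p under 0.05. In those 3 fits 0.274%, 0% and 2.92% of tested probes were called, and 1.17%, 0.905% and 15.7% had an unadjusted p under 0.05. Every valsartan array lay below every low-dose array for Hadhb and Etfdh, where 7.99% of tested probes did.

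The model shares its estimate of spread over all 4 groups, and the SD of all 10 genes was largest in saline. Saline arrays 3, 7 and 8 were chosen after their high levels of these genes had been seen, so leaving them out lowers that spread by construction. The remaining saline arrays hold near-identical pairs, so the spread may be too small. The calls that follow rest on this smaller spread and are not separate evidence of a difference. When saline arrays 3, 7 and 8 were left out, the differences between treated groups kept their size but 4 of 10 genes were called between valsartan and low-dose SXC (28.3% of all tested probes in either direction): Acaa2, -1.04 ± 0.35 (SE, adjusted p = 0.0308), Hadha, -1.0 ± 0.24 (SE, adjusted p = 0.00503), Hadhb, -0.91 ± 0.19 (SE, adjusted p = 0.00194), and Etfdh, -0.99 ± 0.25 (SE, adjusted p = 0.00662). Between valsartan and high-dose SXC Cpt2 was called, at -1.07 ± 0.23 (SE, adjusted p = 0.0188), where 2.71% of tested probes were. Between the SXC doses limma called 0 of the 10, with 2 at an unadjusted p under 0.05, where 24.3% and 37.9% of tested probes were. Valsartan arrays were all scanned at the lower gain and low-dose arrays at the higher gain, so gain and treatment cannot be told apart in that comparison.

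**Figure D4:**
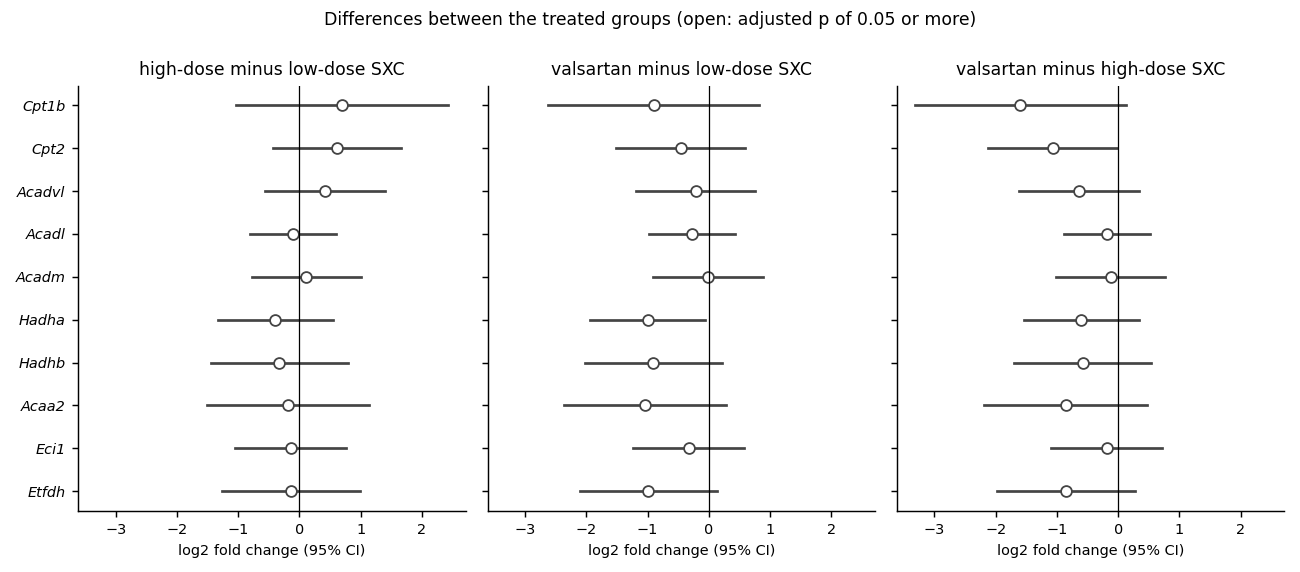
Log2 fold change with its 95% confidence interval for the 10 genes between high-dose and low-dose SXC, valsartan and low-dose SXC, and valsartan and high-dose SXC, in the model of all 26 arrays. All symbols are open (adjusted p of 0.05 or more), and the 10 points against high-dose SXC all lie below 0, from -0.12 for Acadm to -1.60 for Cpt1b.

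Other genes of the pathway were read from named lists, and the list genes named here passed the limma threshold in each comparison for which a value is given. Among 12 other beta-oxidation enzymes, 6 were called lower with low-dose SXC, 6 with high-dose SXC and 9 with valsartan, and 1, 0 and 0 higher. Acad11, an acyl-CoA dehydrogenase, differed by -2.50 ± 0.48 with low-dose SXC and -2.69 ± 0.48 (SE) with high-dose SXC, where 3 of 6 arrays were well above background, and was not well above background on any of 6 valsartan arrays. Acat1, the acetoacetyl-CoA thiolase of ketone body metabolism, differed by -2.19 ± 0.45, -2.39 ± 0.45 and -2.47 ± 0.45. Hsd17b10, which acts on branched-chain acyl groups, differed by -1.45, -1.21 and -1.16 (SE 0.19). Acadsb, the short and branched chain dehydrogenase, showed another saline pattern: it lay between -2.06 and -1.77 on all 8 saline arrays, with no excess on arrays 3, 7 and 8, and differed by -1.01, -1.21 and -1.78 (SE 0.16). It was well above background on only 1 of 6 valsartan arrays. Acadsb was also lower with valsartan than with low-dose SXC, with a difference of -0.77 ± 0.17 (adjusted p = 0.00188), a difference whose sign turned after normexp background correction (0.29, adjusted p = 0.0570).

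In the carnitine shuttle and fatty acid activation list 5, 6 and 8 of 12 genes were called lower with low-dose SXC, high-dose SXC and valsartan, and 1, 0 and 1 higher. Slc25a20, the carnitine-acylcarnitine carrier of the inner membrane, differed by -2.24 with low-dose SXC (adjusted p = 0.00181) and -2.51 with valsartan (3.60e-04). Slc22a5, the plasma membrane carnitine transporter, differed by -1.90 with high-dose SXC and -2.84 with valsartan (adjusted p = 1.84e-04 and 9.70e-07), and by -1.27 between valsartan and low-dose SXC (0.0265), where normexp background correction gave 0.19 (adjusted p = 0.618). Cpt1a, the liver form of carnitine palmitoyltransferase 1, differed by -0.80 and -0.69 with low-dose and high-dose SXC. Acsl3, an acyl-CoA synthetase, was higher with low-dose SXC by 0.79 ± 0.17 (adjusted p = 4.72e-04). The electron transfer list had 2, 2 and 3 of 3 genes called lower. In it Etfa, the alpha subunit of the flavoprotein that feeds Etfdh, differed by -1.48, -1.73 and -2.29, the low-dose call being lost without saline arrays 3, 7 and 8 (-0.31), and Etfbkmt, which methylates the beta subunit, by -1.70, -1.75 and -1.60.

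Peroxisomal oxidation, which shortens very long chains outside mitochondria, had 4, 5 and 5 of 11 genes called lower and 0, 1 and 1 higher. Abcd2, a peroxisomal membrane transporter of very long chain acyl groups, differed by -2.21, -2.05 and -3.30 with low-dose SXC, high-dose SXC and valsartan. Without saline arrays 3, 7 and 8 Abcd2 was not called with either SXC dose (-1.14 and -0.99). Of 18 regulators and targets, 12, 9 and 12 were called lower and 2, 2 and 1 higher. Cd36, a fatty acid transporter, differed by -2.16 and -1.90 with the SXC doses, and Angptl4, an inhibitor of lipoprotein lipase induced by PPAR, by -2.21 with high-dose SXC and -3.78 with valsartan. Ppard, which encodes a PPAR receptor, was higher with high-dose SXC by 0.79 ± 0.17 (adjusted p = 4.24e-04), but by 0.15 after quantile normalisation, which was not called. Ppargc1b, a coactivator of mitochondrial genes, was well above background on 8 of 8 saline arrays and 0 of 6 valsartan arrays. Slc22a5, Abcd2 and Acot1 were so on 1 of 6 valsartan arrays and Ucp2 on 2 of 6.

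The citrate cycle and respiratory chain list had 11, 13 and 16 of 22 genes called lower, and limma called 0 higher (1, 0 and 1 at an unadjusted p under 0.05), and saline arrays 3, 7 and 8 were above all other saline arrays for 22 of 22. Atp5f1b, the catalytic subunit of ATP synthase, differed by -2.03, -2.36 and -2.22. Without saline arrays 3, 7 and 8 the same list had 8, 8 and 11 genes called lower and 5, 3 and 4 higher. The other beta-oxidation enzymes then had 5, 5 and 5 lower and 3, 1 and 1 higher. In that fit 15.4%, 20.7% and 24.5% of the 23744 tested probes were called lower, and 4643, 7739 and 6996 probes higher. Over all 6 lists, 40 of 78 genes were called lower and 4 higher with low-dose SXC, 41 and 3 with high-dose SXC, and 53 and 3 with valsartan. Between the treated groups, calls in these lists numbered 3 between the SXC doses and 6 between valsartan and low-dose SXC. Between valsartan and high-dose SXC limma called 0, and 8 genes had an unadjusted p under 0.05. Of all tested probes 22.2%, 25.2% and 1.37% were called in these 3 comparisons, and 17.2% had an unadjusted p under 0.05 in the last. Acot1, a cytosolic acyl-CoA thioesterase, was lower with low-dose SXC than with high-dose SXC (difference 1.61 ± 0.40, adjusted p = 0.00580) and than with valsartan (1.37 ± 0.40, adjusted p = 0.0143), but after quantile normalisation neither difference was called (0.62 and 0.67). Ucp2, an uncoupling protein of many tissues, was likewise lower with low-dose SXC, with differences of 1.67 ± 0.51 (adjusted p = 0.0205) and 1.66 ± 0.51 (0.0194), of which the high-dose one had an adjusted p of 0.0768 after quantile normalisation.

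Likeness to the 10 genes was measured as the root mean square distance, in log2 units, between a gene's centred level and the mean centred level of the 10. Over the 26 arrays the nearest of 11845 other genes were Dlat (0.22), Phyh, Coq8a, Fitm2, Ptgr3, Dgat1, Kgd4, Etfa, Abcg1 and Ces1d (0.31), beside a median distance of 1.48. Dlat encodes a subunit of the pyruvate dehydrogenase complex, Phyh a peroxisomal hydroxylase and Dgat1 an enzyme of triglyceride synthesis. Over the 8 saline arrays the nearest were Rnf125 (0.045), Mecr, Slc25a20, Cmbl, Hsdl2, Etfa, Acad11, Trim63, Dgat1 and Pacc1 (0.11), with a median of 1.55 over 12195 genes. The arrays share the saline pairs described above, so these distances describe this set of arrays only. Among the 10 themselves, measured over the 26 arrays against the mean of the rest, Hadha was closest at 0.34 and Etfdh next at 0.38, whereas Acaa2 (0.91) and Cpt1b (0.93) followed the others least. Over the 8 saline arrays Etfdh was closest (0.12), and Acadl (0.57) and Cpt1b (0.72) followed least.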

How the data were processed

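RNA of each thoracic aorta was hybridised in a single colour (Cy3) to an Agilent rat array, 26 in all. The authors quantified the scans with Agilent Feature Extraction 11.0.1.1, per the file headers and the submitters' processing notes. The processed signal is an intensity that this program corrected for background and spatial trend on each array, per the file headers, with no scaling across arrays. Median spot and background intensities and 0 or 1 spot flags come from the same deposited files. The authors' deposited table holds log2 values made by a method not given in the sources used here, and its columns have medians of 5.75 to 5.76, are not centred per gene, and run in the direction of the scanner values. It was used as an alternative.

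Control spots and outlier-marked spots (at most 3.42% of an array) were left out, log2 of the processed signal minus the array's 75th percentile was taken, and spots of a probe were averaged. The test covered the 23744 of 30367 probes that were well above background on 6 or more of 26 arrays, a probe counting as such where at least 0.5 of its spots did, and no probe value was saturated. Probes were named by unversioned RefSeq accession through the GRCr8 gene table: 18005 matched 1 symbol and 12362 have none here. The 4 groups were compared in all 6 pairs in 1 limma fit (version 3.58.1, R 4.3.3, eBayes with trend, 2-sided) with Benjamini-Hochberg adjustment over all tested probes, and every adjusted p comes from limma. The median SE of a difference was 0.30 against saline and 0.33 between treated groups. This precision depends on the spread of a probe as well as on how many arrays there are. For the brightest probes of the genes followed here, the SE against saline was larger, from 0.32 for Acadl to 0.79 for Cpt1b. The fit was tested on simulated data with independent noise on each array and the same spread in every group. In these data 34% to 48% of changes of 1 log2 unit and 66% to 90% of changes of 2 were called. They held no paired saline arrays or slide effects, so they do not show how the fit handles those.

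A gene was represented by its brightest tested probe over the 26 arrays. All 10 genes are named in every comparison, and of each list up to 4 genes with the smallest p among those called. The 10 nearest genes by likeness and the markers Ucp1, Adipoq, Myh6, Acta2 and Myh11 were named by rule too. The markers Myl2 and Mb were outside that rule, and not every marker in it is given here. The 10 genes, the lists and the markers were chosen with earlier results of these data known, so their directions are not independent evidence. Alternatives covered normalisation, background correction, filters, blocks for slide, scan day, gain and replicate number, and the choice of saline arrays; leaving out saline arrays 3, 7 and 8, or 3, 4, 7 and 8, was chosen after seeing the data. The normexp correction (offset 50) used median spot signals, because mean spot signals were not used here. Figures were drawn with matplotlib 3.10.9.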

Additional observations from a re-analysis of the deposited data

Results flagged for a closer look

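Within each group the lowest or highest array of each gene was set against the rest by the gap to its neighbour divided by the range of the group, at Dixon's 95% limit. Chance alone marks about 1 in 20 groups of independent arrays, and 5 of 40 were marked here. These rates cannot be compared, because the genes share the same arrays. In saline, near-identical pairs also keep an extreme array close to its neighbour. Low-dose array 2 stood high for 3 genes, with levels of -0.75 for Acaa2 (next array -1.62), 0.76 for Hadhb (next 0.033) and 0.86 for Etfdh (next 0.014). That array was the highest of its group for 10 of 10 genes, against 13.4% of all probes, and it also had the highest summed signal of its group for brown adipocyte markers (58.4) and for white and shared adipocyte markers (29.6), whose part was not tested. High-dose array 3 stood low for Hadha at -3.24 (next -2.46) on an array with 28.9% of probes well above background. High-dose array 1 stood low for Cpt1b at -0.60 (next 1.88).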

How the results depend on the processing

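All differences of the 10 genes from saline kept their sign under every normalisation, background correction, filter and block tried, and no called difference reversed under any alternative. Leaving out each array in turn gave 7 to 7 genes called with high-dose SXC, 7 to 10 with low-dose SXC and 10 to 10 with valsartan, with 0 to 0 in the 3 comparisons between treated groups. With high-dose SXC, 4 of the 10 were called with detector gain as a block and 4 without the lower-gain arrays, which leaves 2 high-dose arrays. With low-dose SXC, 5 were called without saline arrays 3, 7 and 8, and 4 without 3, 4, 7 and 8. Between valsartan and low-dose SXC those settings called 4 and 4, and between valsartan and high-dose SXC 1 and 1. Replicate numbers did not pair the arrays: 36 correlations between same-numbered arrays ran from -0.36 to 0.28, and 6 of 24 arrays correlated best with their own number. With replicate number as a block, 7 genes were called with high-dose SXC, 6 with low-dose SXC, 9 with valsartan (20.1%, 14.9% and 23.7% of all tested probes lower) and 0 in limma between treated groups.

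For the 6 pathway lists together, leaving out each array gave 40 to 51 calls with high-dose SXC, 39 to 50 with low-dose SXC, 51 to 59 with valsartan, 2 to 4 between SXC doses, 3 to 8 between valsartan and low-dose SXC and 0 to 1 between valsartan and high-dose SXC. Requiring probes well above background on all 26 arrays, which tests fewer genes, gave 23, 19 and 30 against saline (44, 44 and 56 otherwise). High-dose calls fell to 19 with gain as a block and 18 without the lower-gain arrays, where 27.4% and 42.8% of tested probes were called against 57.1% otherwise. Between the SXC doses (3 calls) there was 1 after quantile normalisation, 6 after normexp, 9 without saline arrays 3, 7 and 8 and 9 without 3, 4, 7 and 8, and 0 with the stricter filter, slide as a random or fixed block, scan day or gain as a block, or without the lower-gain arrays. Shares of tested probes called between the doses were 15.4% after quantile normalisation, 45.4% after normexp, and 24.3% and 22.7% without saline arrays. Between valsartan and low-dose SXC (6 calls) there were 11 after quantile normalisation, 18 after normexp, 1 with the stricter filter, 1 with slide as a random block, and 21 and 20 in the settings without saline arrays. The shares of tested probes were 25.6%, 61.2%, 27.4%, 7.75%, 28.3% and 26.4% in that order. Between valsartan and high-dose SXC (0 calls) there was 1 after quantile normalisation, with the authors' deposited table and with gain as a block, and there were 6 and 2 without saline arrays. Apart from the fewer genes or arrays named, the cause was not tested.

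Saline and treated arrays share no slide or scan day, so these blocks could not be fitted there, nor gain as a block between valsartan and saline or low-dose SXC, and normexp on mean spot signals was not run. Genes near background on lower-gain arrays, such as Hadha and Acaa2 with valsartan, are limited by signal. The all-probe median of valsartan against saline was 0.19, and became -0.30 after quantile normalisation and 0.70 after normexp.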

Other observations

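The high-dose group was scanned at both gains, 2 arrays at the higher and 4 at the lower. On the higher-gain arrays 3 of the 10 genes were lower, Cpt1b by -1.39, Acadvl by -0.69 and Cpt2 by -0.64 in mean log2 level, and the other 7 were higher. The median over the 10 was 0.22 and over all tested probes -0.13.

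Hadha and Cpt1b each have a second tested probe. The second Hadha probe was called lower with valsartan (-1.08, adjusted p = 0.0136 in limma). The second Cpt1b probe was well above background on 7 of 26 arrays and was called in no comparison. With the mean of both probes, Cpt1b with valsartan was not called (-0.74, adjusted p = 0.374).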
